A study of Vitis vinifera with 36 samples.

Results

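The auxin genes of the ripening grape berry described here are 51 genes that the study placed under auxin in its list of hormone genes, out of 28441 genes listed in at least 1 library. The study picked candidate genes by enrichment analysis of differentially expressed genes and set out the list by winter against summer in these same libraries. Not every gene in it was reported as differing, since in CS only TAR1 and TAR2 of the TAR genes were. The list is treated here as chosen on the measured values of that comparison. By family the list holds 4 TAR genes, 3 YUCCA genes, 6 AUX1 genes, 2 TIR1 genes, 11 AUX/IAA genes, 10 ARF genes, 5 GH3 genes and 10 SAUR genes. Family names are those of that list. The seasonal values are therefore given below as a description with no p printed, and the comparisons of stages and cultivars rest on the same libraries. Berries of 2 Vitis vinifera cultivars, the white Riesling and the red Cabernet Sauvignon (CS), were sampled in the winter crop and the summer crop of 2014 at E-L 35 (onset of veraison, when berries soften and colour), E-L 36 (end of veraison) and E-L 38 (harvest). Each of the 12 conditions (Riesling winter, Riesling summer, CS winter and CS summer, at 3 stages) had 3 libraries, 36 in all, made from deseeded berries, that is, whole pericarp. All vines stood in 1 vineyard in southern China under a rain shelter, were grafted onto the same rootstock and were pruned and forced into growth before each crop, and each season is 1 crop of 1 year, so season and that crop cannot be told apart. The replicates are pools of berries from that vineyard, so p-values measure the spread between these pools.

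Auxin, chiefly indole-3-acetic acid, is made from tryptophan in a short pathway known best from Arabidopsis: aminotransferases of the TAR family form indole-3-pyruvate and YUCCA flavin monooxygenases convert it to the hormone. AUX1 proteins carry auxin into cells. Inside the nucleus, auxin joins TIR1 F-box receptors to AUX/IAA repressors, the repressors are degraded, and the ARF transcription factors they had held are released to act on their target genes. GH3 enzymes join auxin to amino acids and so remove it from the active pool, while SAUR genes are small early-response genes that auxin switches on. In fruits such as the grape berry, auxin is known as a hormone of early growth whose level declines toward ripening and whose application delays ripening.

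Library totals ran from 8367013 to 28686956 counts, with a median of 10966200. The cultivar labels matched the colour genes: MYBA1, which drives anthocyanin synthesis in red berries, lay between 0 and 0.89 FPKM (fragment counts scaled by transcript length and by library size) in the 18 Riesling libraries and between 2.98 and 21.4 FPKM in the 18 CS libraries. The stage labels of Riesling summer were checked with an index of ripening built without the auxin genes, from 146 genes that were higher and 620 that were lower at harvest than at E-L 35 in the other 3 series of berries. The higher index at E-L 38 of those 3 series is fixed by this choice of genes. Its mean at E-L 35, 36 and 38 was -1.54, -0.51 and 2.46 in Riesling winter, -1.29, 0.01 and 2.55 in CS winter, and -1.60, 0.23 and 1.58 in CS summer. In Riesling summer it was -1.68, 0.33 and -0.55, so the 3 Riesling summer libraries labelled E-L 38 lay below those labelled E-L 36, against their label. Results that rest on these libraries are therefore given with and without them. The E-L 35 libraries of Riesling were spread on the index. Replicates 1 to 3 stood at -1.31, -2.02 and -1.29 in winter and at -1.23, -1.58 and -2.24 in summer. Other groups of the same label also differed, such as E-L 36 of Riesling (-0.51 in winter, 0.33 in summer) and E-L 38 of CS (2.55 and 1.58). Whether ripeness accounts for differences between such groups was not tested. Because these are bulk samples, fewer cells of a type and less RNA per cell cannot be told apart.

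**Figure D1:**
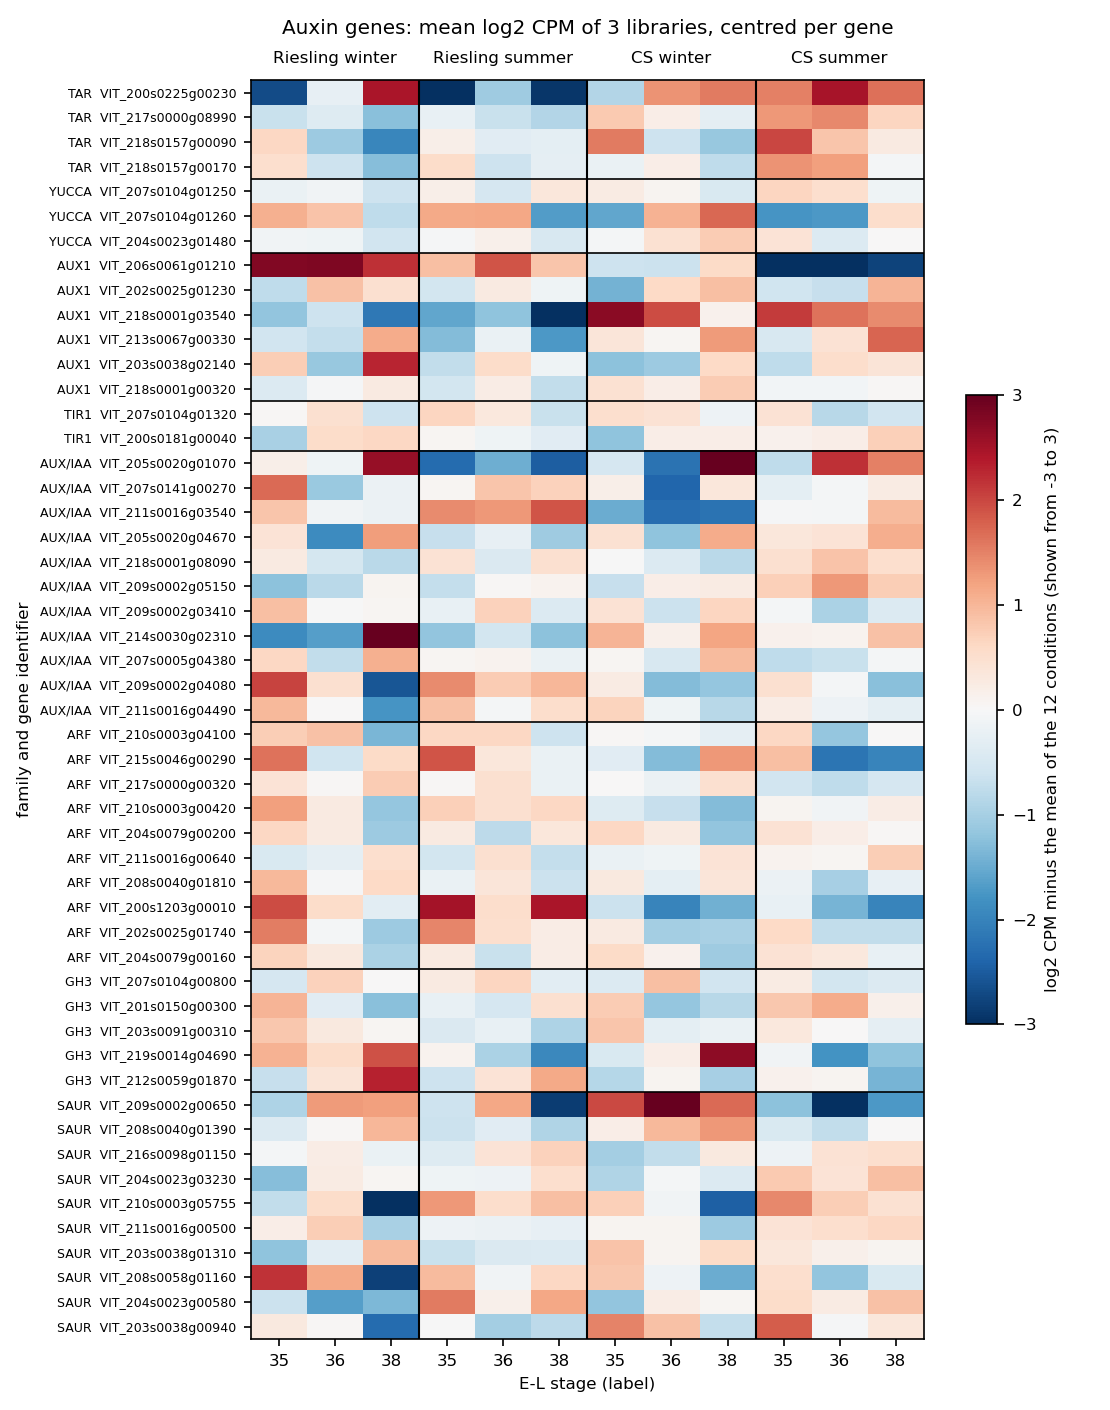
Heat map of the 51 auxin genes (rows, by family) in the 12 conditions (columns, by cultivar, season and E-L stage), as mean log2 CPM (counts scaled by library size) of 3 libraries minus the mean of the 12 conditions for each gene, on a colour scale from -3 (blue) to 3 (red). In Riesling winter, AUX/IAA genes such as VIT_209s0002g04080 (2.02 at E-L 35 and -2.56 at E-L 38) run from red to blue, whereas VIT_214s0030g02310 (-1.88 and 3.05) runs from blue to red.

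On FPKM, which is per length and so allows levels of different genes to be set side by side, 1 AUX/IAA gene and 1 TAR gene led the list. Over the 36 libraries VIT_209s0002g05150 (AUX/IAA) averaged 422 FPKM and TAR1 (VIT_200s0225g00230) averaged 130 FPKM, followed by the SAUR gene VIT_216s0098g01150 at 120 FPKM, the AUX/IAA genes VIT_211s0016g04490 at 92.8 FPKM and VIT_218s0001g08090 at 71 FPKM, and the YUCCA gene VIT_207s0104g01250 at 67.1 FPKM. At the other end, the GH3 genes VIT_219s0014g04690 and VIT_201s0150g00300 averaged 0.371 and 0.372 FPKM. All 51 genes had enough counts to enter the test. In Riesling winter the highest mean fell at E-L 35, 36 and 38 for 25, 9 and 17 genes, and in CS winter these counts were 22, 6 and 23. In CS summer they were 26, 7 and 18. In Riesling summer they were 21, 24 and 6, with all 6 AUX1 genes highest at E-L 36, counts that use the libraries labelled E-L 38. With those libraries set aside, all 6 AUX1 genes and 27 of the 51 genes had a higher fitted level at E-L 36 than at E-L 35. No share over all genes was computed for the stage of the highest mean.

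Expression was compared between stages within each cultivar and season, with E-L 35 as the reference for both later stages, so the E-L 36 and 38 comparisons share their E-L 35 libraries. A gene was called higher or lower where the adjusted p of edgeR's quasi-likelihood test over 20183 genes was at most 0.01 and the change at least 2-fold. At E-L 36 against E-L 35, 6 auxin genes were higher and 12 lower in Riesling winter, where 4.13% of all tested genes were called higher and 6.01% lower. The counts were 3 higher and 5 lower in Riesling summer (background 3.28% higher and 6.92% lower), 3 higher and 9 lower in CS winter (3.78% and 5.62%), and 1 higher and 6 lower in CS summer (1.46% and 5.04%). At E-L 38 against E-L 35, 13 auxin genes were higher and 19 lower in Riesling winter (8.75% and 18%), 10 higher and 14 lower in CS winter (7.72% and 13.1%), and 3 higher and 7 lower in CS summer (2.96% and 6.57%). With the Riesling summer libraries labelled E-L 38, 5 genes were lower (background 3.97%) and 0 higher (background 1.87%) by edgeR, where 3 genes above E-L 35 had an unadjusted p under 0.05, DESeq2 called 1 gene higher, and limma called 0 with either pseudocount. The Riesling summer counts moved with single libraries: the 8 calls at E-L 36 became 3 without E-L 36 replicate 3 and 4 without E-L 35 replicate 3. The 5 calls with the libraries labelled E-L 38 became 2 without E-L 35 replicate 3, 3 without replicate 1 or 3 of those libraries, and 8 without E-L 35 replicate 1. Apart from the count of 0, the shares of auxin genes called lay above the background in both directions in the 8 comparisons, and this is not independent of how the genes were chosen.

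The median log2 fold change of the 51 genes at E-L 38 was -0.58 in Riesling winter, -0.37 in Riesling summer, -0.18 in CS winter and -0.25 in CS summer, against -0.04 to 0.01 over all tested genes. Of the 51 genes, 46 were called in at least 1 of the 8 stage comparisons (background 44.6% of all tested genes), 16 in the higher direction alone, 27 in the lower direction alone and 3 in both directions, and the same counts held over the 7 comparisons without the Riesling summer libraries labelled E-L 38 (background 43.8%). The list is treated as chosen on these libraries, so its share is not independent. The winter series of the 2 cultivars, which share no library, had calls in common at E-L 38: 6 genes were higher in both (46.2% of the 13 in Riesling winter and 60% of the 10 in CS winter) and 12 were lower in both (63.2% of 19 and 85.7% of 14), with 0 genes called in opposite directions. Over all tested genes the shared shares were 46% and 52.1% for higher genes and 47.3% and 65.1% for lower genes. For calls in opposite directions no share over all tested genes was computed, so nothing is read from the count of 0.

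**Figure D2:**
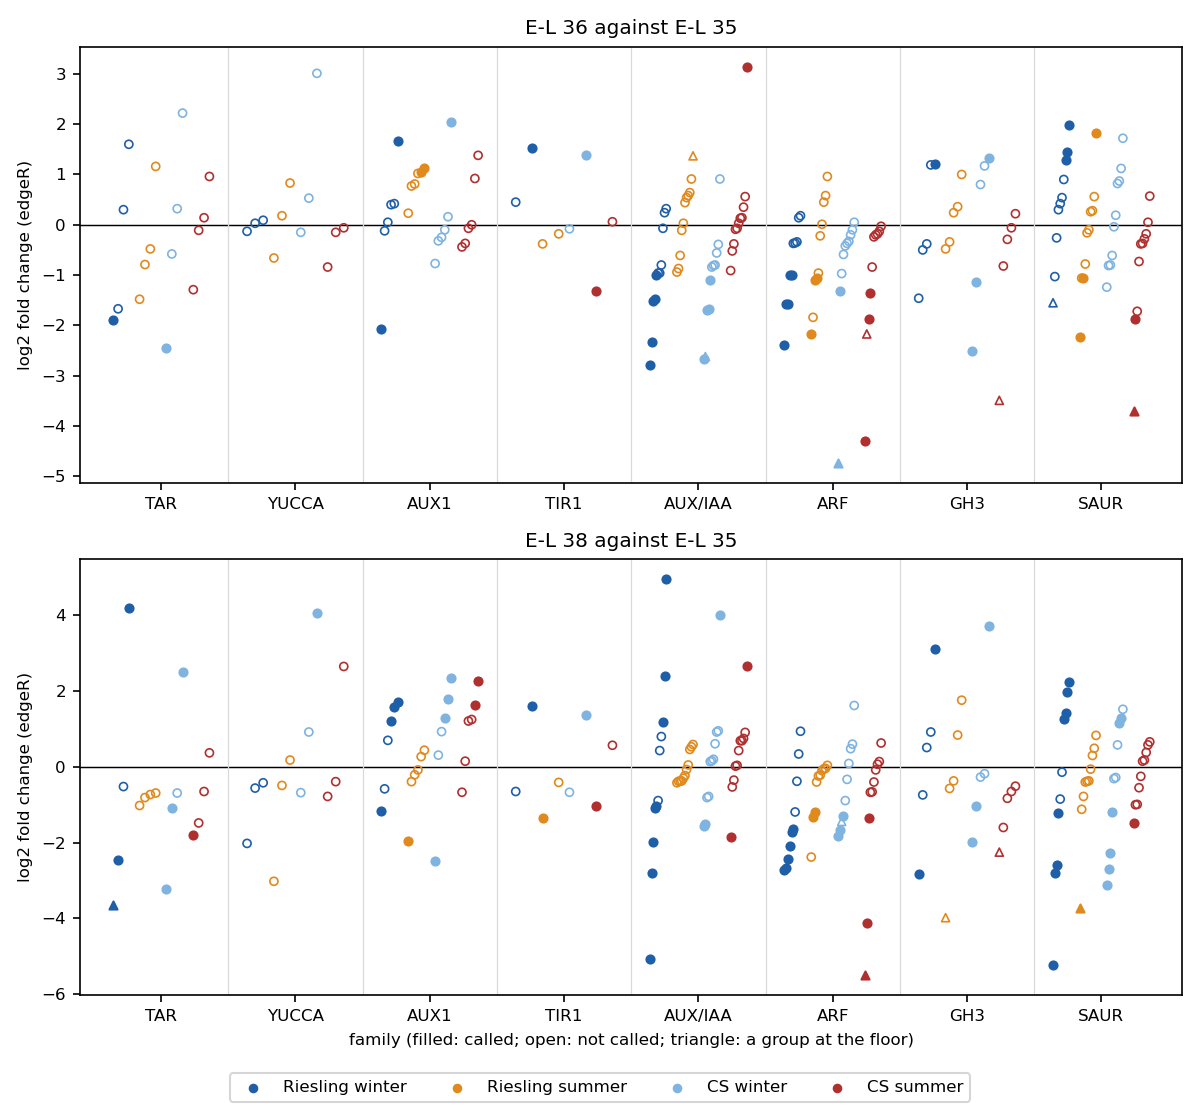
Log2 fold change of each auxin gene at E-L 36 (upper panel) and E-L 38 (lower panel) against E-L 35 from edgeR, by family, coloured by cultivar and season; filled marks were called (adjusted p at most 0.01 and at least 2-fold), and triangles mark comparisons with a group at the floor of 3 counts, where the fitted value is no bound. In the lower panel 6 of 10 ARF genes are filled below 0 in Riesling winter and 4 of 10 SAUR genes are filled on either side of 0. Of all tested genes 8.75% were called higher and 18% lower there.

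Between cultivars at the same season and stage label, Riesling had 8 auxin genes higher and 7 lower than CS in winter at E-L 35 (background 8.7% higher and 5.91% lower), 6 higher and 3 lower at E-L 36 (8.6% and 4.95%), and 5 higher and 6 lower at E-L 38 (5.54% and 6.56%). The labels do not match ripeness exactly: at E-L 36 of winter the mean ripening index was -0.51 in Riesling and 0.01 in CS. In summer, Riesling had 5 higher and 9 lower at E-L 35 (5.99% and 5.66%) and 13 higher and 9 lower at E-L 36 (9.26% and 7.61%), and the libraries labelled E-L 38 had 5 higher and 11 lower (10.3% and 8.84%). Of the 51 genes, 38 were called in at least 1 of the 6 comparisons (background 37.6% of all tested genes), and 34 in at least 1 of the 5 that leave out the libraries labelled E-L 38 of summer (background 33.2%). The AUX1 gene VIT_206s0061g01210 was higher and the AUX1 gene VIT_218s0001g03540 lower in Riesling in all 6. At E-L 35 of summer the 14 calls became 9 without CS summer E-L 35 replicate 1 or without Riesling summer E-L 35 replicate 3. Beside these, UFGT, which puts the sugar on anthocyanins, lay at 7.1 to 10.8 FPKM in Riesling and 22 to 130 FPKM in CS.

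**Figure D3:**
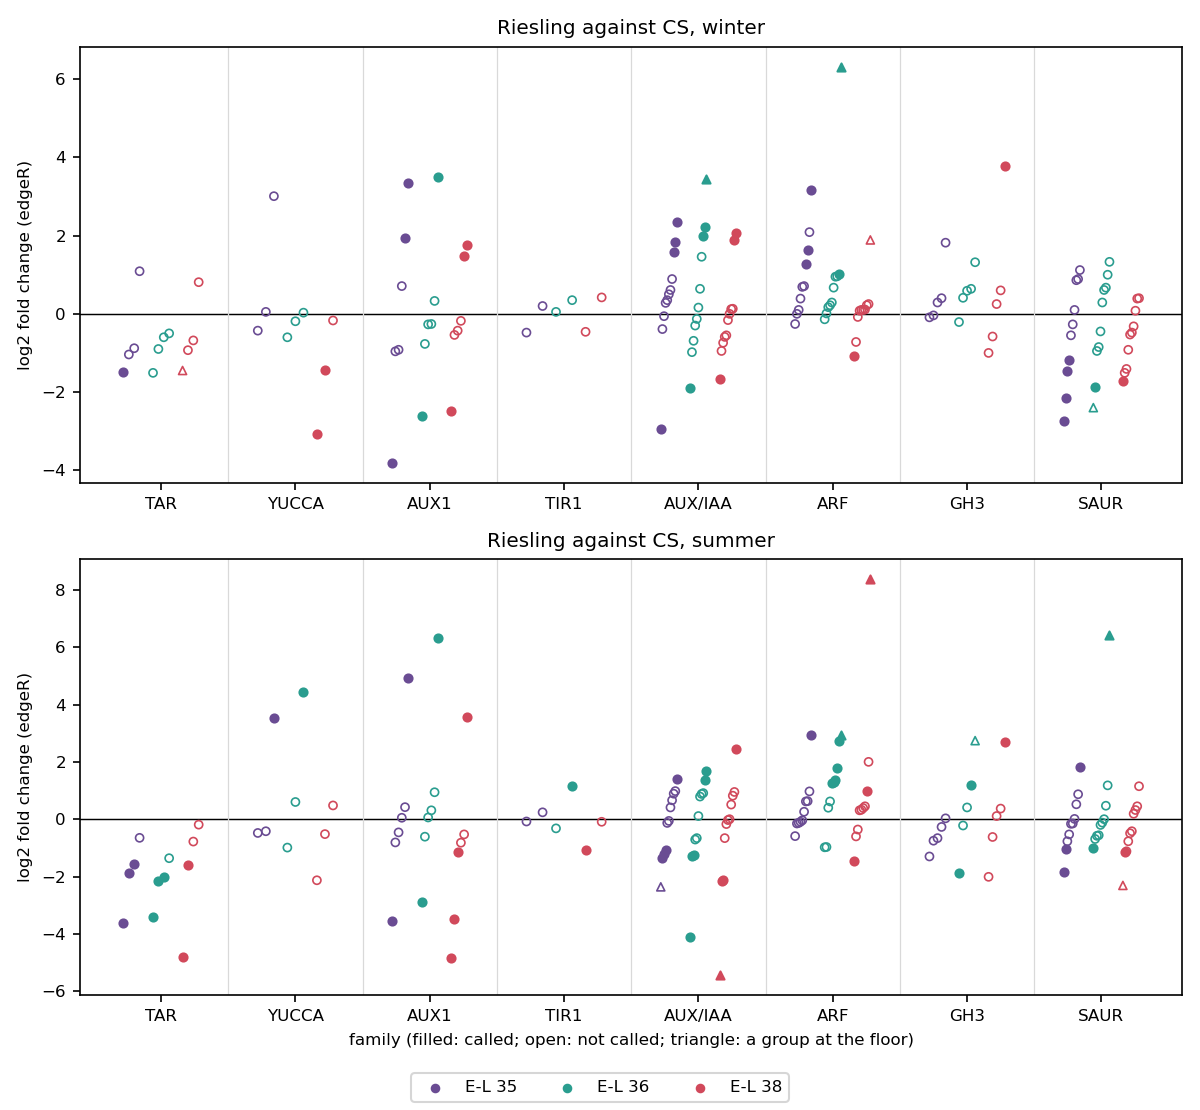
Log2 fold change of each auxin gene in Riesling against CS from edgeR, by family, in winter (upper panel) and summer (lower panel), coloured by E-L stage; filled marks were called, and triangles mark comparisons with a group at the floor. The TAR genes lie mostly below 0, and 6 of 10 ARF genes are filled above 0 at E-L 36 of summer (9.26% of all tested genes).

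Among the genes of auxin synthesis, TAR1 was higher and TAR3 lower at harvest in both winter series. TAR1 (the unplaced chromosome Un, 14754246 to 14757498, minus strand) ended 4.20 log2 units higher at harvest in Riesling winter, whereas TAR3 (VIT_218s0157g00090, chromosome 18, 18858918 to 18864125, minus strand) was lower at both later stages in both winter series, with coordinates on the 12X V2 assembly of the grape genome here and below. In Riesling winter, TAR1 stood at 15.6, 1.53 and 45.5 FPKM at E-L 35, at 67.4, 68 and 29.9 FPKM at E-L 36 and at 334, 341 and 336 FPKM at E-L 38. In Riesling summer, TAR1 stood at 30.7, 14.7 and 0.85 FPKM at E-L 35, at 35.9, 51.9 and 18 FPKM at E-L 36 and at 8.63, 9.58 and 7.19 FPKM at E-L 38. Its 3 harvest libraries of Riesling winter were far above all other Riesling libraries, and its E-L 35 libraries were spread widely in both Riesling seasons. In CS winter, TAR1 stood at 26.7, 30.2 and 43.4 FPKM at E-L 35, at 115, 160 and 142 FPKM at E-L 36 and at 108, 236 and 227 FPKM at E-L 38. In CS summer, TAR1 stood at 198, 169 and 169 FPKM at E-L 35, at 334, 349 and 318 FPKM at E-L 36 and at 79.8, 283 and 285 FPKM at E-L 38. All CS summer libraries lay above all Riesling summer libraries. At E-L 38 against E-L 35, TAR1 was higher in Riesling winter (log2 fold change 4.20, adjusted p = 2.3e-05, SE 0.75) and in CS winter (log2 fold change 2.51, adjusted p = 0.00319, SE 0.69), the CS call being lost without CS winter E-L 35 replicate 1 (2.37, adjusted p = 0.0186), CS winter E-L 35 replicate 2 (2.44, adjusted p = 0.0162) or CS winter E-L 38 replicate 2 (2.33, adjusted p = 0.0111). Riesling had less TAR1 than CS at each summer stage, with log2 fold changes of -3.61 (adjusted p = 0.00032, SE 0.73) at E-L 35, -3.42 (adjusted p = 0.0003, SE 0.72) at E-L 36 and -4.80 (adjusted p = 1.2e-05, SE 0.78) with the libraries labelled E-L 38. Counts of TAR1 were fractional in 35 of 36 libraries, so part of its reads may have been shared with other genes and its level is uncertain.

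TAR2 (VIT_217s0000g08990, chromosome 17, 10559797 to 10565113, plus strand) was a low-level gene called lower in Riesling than in CS at all summer stages and at E-L 35 of winter. At E-L 36 and 38 of winter it was not called, and the libraries of the cultivars overlapped. In Riesling winter, TAR2 stood at 1.44, 1.22 and 1.33 FPKM at E-L 35, at 1.83, 1.53 and 1.14 FPKM at E-L 36 and at 0.76, 1.32 and 0.46 FPKM at E-L 38. In Riesling summer, TAR2 stood at 2.15, 1.53 and 1.94 FPKM at E-L 35, at 1.23, 1.29 and 1.38 FPKM at E-L 36 and at 1.08, 1.37 and 0.86 FPKM at E-L 38. In CS winter, TAR2 stood at 3.41, 2.88 and 3.72 FPKM at E-L 35, at 2.02, 1.8 and 2.34 FPKM at E-L 36 and at 1.2, 1.62 and 1.78 FPKM at E-L 38. All 3 stages of CS winter were separate from each other, with E-L 35 highest. In CS summer, TAR2 stood at 5.21, 4.6 and 5.34 FPKM at E-L 35, at 5.93, 4.51 and 5.4 FPKM at E-L 36 and at 3.57, 3.16 and 2.35 FPKM at E-L 38. Riesling was lower at E-L 35 of winter (log2 fold change -1.49, adjusted p = 1.5e-05, SE 0.24) and at all stages of summer, with log2 fold changes of -1.56 (adjusted p = 4.5e-06, SE 0.23), -2.17 (adjusted p = 1.2e-08, SE 0.23) and, with the libraries labelled E-L 38, -1.61 (adjusted p = 4.7e-06, SE 0.25). The fall by harvest in CS winter (log2 fold change -1.08, adjusted p = 0.00026, SE 0.23) was lost as a call without CS winter E-L 35 replicate 3 (-0.99, adjusted p = 0.00209) or CS winter E-L 38 replicate 1 (-0.93, adjusted p = 0.00289).

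In Riesling winter, TAR3 stood at 0.88, 0.97 and 1.01 FPKM at E-L 35, at 0.06, 0.22 and 0.35 FPKM at E-L 36 and at 0.06, 0.06 and 0.07 FPKM at E-L 38. In Riesling summer, TAR3 stood at 0.64, 0.3 and 1.41 FPKM at E-L 35, at 0.42, 0.55 and 0.34 FPKM at E-L 36 and at 0.46, 0.48 and 0.34 FPKM at E-L 38. The E-L 35 libraries of Riesling winter were separate from both later stages, whereas the stages of Riesling summer overlapped. In CS winter, TAR3 stood at 1.12, 2.07 and 2.09 FPKM at E-L 35, at 0.19, 0.31 and 0.33 FPKM at E-L 36 and at 0.21, 0.18 and 0.17 FPKM at E-L 38. In CS summer, TAR3 stood at 1.4, 3.29 and 3.12 FPKM at E-L 35, at 0.84, 0.91 and 1.24 FPKM at E-L 36 and at 0.32, 1.02 and 0.72 FPKM at E-L 38. The fall in winter was at least 4.99-fold lower against the floor, adjusted p = 1.4e-05 at E-L 38 of Riesling, where all 3 libraries had at most 3 counts, log2 fold change -2.44, adjusted p = 7.6e-05, SE 0.44 at E-L 36 of CS and log2 fold change -3.23, adjusted p = 1.6e-06, SE 0.47 at E-L 38 of CS. At E-L 36 of Riesling winter TAR3 was also lower (log2 fold change -1.90, adjusted p = 0.0033, SE 0.50), a call lost without Riesling winter E-L 35 replicate 2 (-1.88, adjusted p = 0.0108), Riesling winter E-L 36 replicate 1 (-1.48, adjusted p = 0.0304) or Riesling winter E-L 36 replicate 2 (-1.84, adjusted p = 0.0172). In CS summer it was lower at E-L 38 (log2 fold change -1.81, adjusted p = 0.0012, SE 0.41), a call lost without CS summer E-L 38 replicate 1 (-1.45, adjusted p = 0.0161). TAR4 (VIT_218s0157g00170) had means of 0.257 to 1.99 FPKM over the 12 conditions and was lower at harvest in Riesling winter (log2 fold change -2.45, adjusted p = 0.0009, SE 0.60), a call lost without Riesling winter E-L 35 replicate 3 (-1.11, adjusted p = 0.078). Counts of TAR4 were fractional in 33 of 36 libraries, so part of its reads may have been shared with other genes.

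Of the 3 YUCCA genes, the low-level VIT_207s0104g01260 was the 1 called between stages, at E-L 38 of CS winter. Over all tested genes 7.72% were called higher there, and 44.6% were called in at least 1 of the 8 stage comparisons. VIT_207s0104g01250 (chromosome 7, 2276803 to 2279543, minus strand) lies 136 bases from VIT_207s0104g01260 (chromosome 7, 2279680 to 2285668, minus strand) with no gene between them, and stood at far higher levels than its neighbour. In Riesling winter, VIT_207s0104g01250 stood at 56.2, 63.4 and 66.3 FPKM at E-L 35, at 63.2, 61.7 and 51.4 FPKM at E-L 36 and at 37.8, 43.4 and 44.3 FPKM at E-L 38. In Riesling summer, VIT_207s0104g01250 stood at 71.7, 78.7 and 89.5 FPKM at E-L 35, at 54.6, 37.5 and 58.8 FPKM at E-L 36 and at 87.1, 77.5 and 89.8 FPKM at E-L 38. In Riesling winter the harvest libraries lay below those of both earlier stages. In CS winter, VIT_207s0104g01250 stood at 66.5, 76.7 and 79.8 FPKM at E-L 35, at 57.2, 61.3 and 61.2 FPKM at E-L 36 and at 60.4, 38.1 and 41.3 FPKM at E-L 38. In CS summer, VIT_207s0104g01250 stood at 113, 96.7 and 97.3 FPKM at E-L 35, at 96.6, 79.6 and 88.8 FPKM at E-L 36 and at 49.3, 58.5 and 60.3 FPKM at E-L 38. The E-L 38 libraries of CS summer did not overlap with the earlier stages, but this gene was called in none of the 8 stage and 6 cultivar comparisons by edgeR.

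In Riesling winter, VIT_207s0104g01260 stood at 2.78, 2.1 and 3.51 FPKM at E-L 35, at 1.11, 1.79 and 4.57 FPKM at E-L 36 and at 0.49, 0.57 and 0.8 FPKM at E-L 38. In Riesling summer, VIT_207s0104g01260 stood at 1.38, 2.3 and 7.46 FPKM at E-L 35, at 1.05, 1.3 and 16.8 FPKM at E-L 36 and at 0.08, 0.16 and 0.97 FPKM at E-L 38. In Riesling winter the harvest libraries lay below all earlier ones. Replicate 3 was the highest at each stage of Riesling summer, where E-L 35 and 36 overlapped and the libraries labelled E-L 38 lay below both. In CS winter, VIT_207s0104g01260 stood at 0.21, 0.41 and 0.29 FPKM at E-L 35, at 3.33, 2.05 and 1.45 FPKM at E-L 36 and at 11.3, 2.7 and 2 FPKM at E-L 38. In CS summer, VIT_207s0104g01260 stood at 0.25, 0.15 and 0.37 FPKM at E-L 35, at 0.22, 0.32 and 0.21 FPKM at E-L 36 and at 2.26, 1.64 and 1.12 FPKM at E-L 38. In CS the E-L 38 libraries were above the E-L 35 libraries in both seasons. The gene was higher at E-L 38 of CS winter (log2 fold change 4.07, adjusted p = 0.00098, SE 0.99), a call lost without CS winter E-L 38 replicate 1 (2.96, adjusted p = 0.0141). The lower values at E-L 38 were not called in Riesling winter (log2 fold change -2.02, adjusted p = 0.0614, SE 0.93) or in Riesling summer (log2 fold change -3.02, adjusted p = 0.0217, SE 0.96). Riesling was above CS at E-L 35 of summer (log2 fold change 3.54, adjusted p = 0.0036, SE 0.92), a call lost in 4 of the 6 fits that left out 1 of its libraries, with an adjusted p of up to 0.0496 without Riesling summer E-L 35 replicate 3, and at E-L 36 (log2 fold change 4.43, adjusted p = 0.00059, SE 0.99), a call lost without Riesling summer E-L 36 replicate 3 (2.00, adjusted p = 0.0706). At harvest of winter Riesling was below CS (log2 fold change -3.08, adjusted p = 0.00877, SE 0.91), a call lost in 4 of the 6 fits that left out 1 of its libraries, with an adjusted p of up to 0.103 without CS winter E-L 38 replicate 1.

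The third YUCCA gene, VIT_204s0023g01480 (chromosome 4, 18026299 to 18029034, plus strand), stayed at a few FPKM throughout. In Riesling winter, VIT_204s0023g01480 stood at 4.66, 2.08 and 6.23 FPKM at E-L 35, at 3.99, 3.68 and 2.8 FPKM at E-L 36 and at 2.91, 2 and 3.19 FPKM at E-L 38. In Riesling summer, VIT_204s0023g01480 stood at 4.73, 2.91 and 4.96 FPKM at E-L 35, at 5.09, 5.68 and 3.28 FPKM at E-L 36 and at 2.87, 3 and 2.5 FPKM at E-L 38. The Riesling stages overlapped in winter. In CS winter, VIT_204s0023g01480 stood at 3.07, 3.3 and 4.47 FPKM at E-L 35, at 4.08, 5.04 and 4.9 FPKM at E-L 36 and at 3.56, 9.16 and 7.64 FPKM at E-L 38. In CS summer, VIT_204s0023g01480 stood at 3.89, 5.7 and 5.91 FPKM at E-L 35, at 3.02, 3.22 and 2.62 FPKM at E-L 36 and at 4.24, 3.45 and 3.53 FPKM at E-L 38. Riesling was lower than CS at harvest of winter, where the libraries did not overlap (log2 fold change -1.43, adjusted p = 0.00044, SE 0.30).

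Among the 6 auxin influx carriers of the AUX1 family, 3 were higher and 1 lower at harvest in each of Riesling winter and CS winter, and 2 were higher in CS summer. Over all tested genes 8.75% were higher and 18% lower in Riesling winter, 7.72% and 13.1% in CS winter, and 2.96% higher in CS summer. The 3 higher in Riesling winter became 1 without Riesling winter E-L 35 replicate 2. VIT_206s0061g01210 (chromosome 6, 19000310 to 19004400, minus strand) stood at a higher level in Riesling than in CS in all 6 comparisons. In Riesling winter, VIT_206s0061g01210 stood at 37.4, 36.5 and 32.8 FPKM at E-L 35, at 29.1, 25.7 and 44 FPKM at E-L 36 and at 22.4, 22.3 and 20.2 FPKM at E-L 38. In Riesling summer, VIT_206s0061g01210 stood at 9.49, 9.71 and 10.2 FPKM at E-L 35, at 14.5, 17.5 and 28.1 FPKM at E-L 36 and at 8.31, 8.54 and 9.17 FPKM at E-L 38. Every Riesling winter library was above 20 FPKM. In CS winter, VIT_206s0061g01210 stood at 3.79, 3.73 and 1.86 FPKM at E-L 35, at 3.27, 2.27 and 2.39 FPKM at E-L 36 and at 14, 5.47 and 4.17 FPKM at E-L 38. In CS summer, VIT_206s0061g01210 stood at 0.33, 0.15 and 0.33 FPKM at E-L 35, at 0.27, 0.2 and 0.19 FPKM at E-L 36 and at 0.79, 0.96 and 0.27 FPKM at E-L 38. At each season and stage the Riesling libraries were all above the CS libraries. Riesling was higher by log2 fold changes of 3.35 (adjusted p = 8e-09, SE 0.34), 3.50 (adjusted p = 3.5e-09, SE 0.34) and 1.47 (adjusted p = 0.00047, SE 0.31) at E-L 35, 36 and 38 of winter. In summer the differences were 4.91 (adjusted p = 3.4e-10, SE 0.42), 6.32 (adjusted p = 1.2e-11, SE 0.47) and, with the libraries labelled E-L 38, 3.58 (adjusted p = 6.9e-08, SE 0.42). Within CS winter the gene was higher at E-L 38 (log2 fold change 1.30, adjusted p = 0.00165, SE 0.33), a call lost without CS winter E-L 35 replicate 3 (1.03, adjusted p = 0.0184) or CS winter E-L 38 replicate 1 (0.66, adjusted p = 0.0586). Within Riesling summer it was higher at E-L 36 (log2 fold change 1.04, adjusted p = 0.00786, SE 0.30), a call lost in 5 of the 6 fits that left out 1 of its libraries, with an adjusted p of up to 0.0767 without Riesling summer E-L 36 replicate 3. Those 2 groups deviated together by replicate number, and with the replicate block the change was 0.99 (adjusted p = 0.00355), under 2-fold.

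VIT_218s0001g03540 (chromosome 18, 3380162 to 3384167, minus strand) had the opposite order of cultivars. In Riesling winter, VIT_218s0001g03540 stood at 1.03, 1.91 and 0.69 FPKM at E-L 35, at 1.63, 1.54 and 1.3 FPKM at E-L 36 and at 0.56, 0.43 and 0.5 FPKM at E-L 38. In Riesling summer, VIT_218s0001g03540 stood at 0.5, 0.64 and 1.83 FPKM at E-L 35, at 1.08, 1.32 and 0.93 FPKM at E-L 36 and at 0.12, 0.35 and 0.21 FPKM at E-L 38. No Riesling library reached 2 FPKM. In CS winter, VIT_218s0001g03540 stood at 15.2, 16.2 and 15.1 FPKM at E-L 35, at 8.74, 7.57 and 8.17 FPKM at E-L 36 and at 1.52, 3.37 and 3.23 FPKM at E-L 38. In CS summer, VIT_218s0001g03540 stood at 9.87, 10.9 and 10.3 FPKM at E-L 35, at 6.75, 7.18 and 7.94 FPKM at E-L 36 and at 6.67, 5.7 and 5.99 FPKM at E-L 38. In both CS seasons the E-L 35 libraries were the highest and did not overlap with the later ones. The log2 fold changes of Riesling against CS were -3.81 (adjusted p = 7.9e-11, SE 0.30), -2.62 (adjusted p = 3.9e-08, SE 0.29) and -2.49 (adjusted p = 2e-06, SE 0.34) at E-L 35, 36 and 38 of winter, and -3.56 (adjusted p = 4.5e-10, SE 0.31), -2.89 (adjusted p = 4.1e-09, SE 0.29) and, with the libraries labelled E-L 38, -4.84 (adjusted p = 3.6e-11, SE 0.38) in summer. The gene was lower at harvest in CS winter (log2 fold change -2.49, adjusted p = 1.1e-08, SE 0.27) and in Riesling winter (log2 fold change -1.17, adjusted p = 0.00881, SE 0.38), the Riesling call being lost in 5 of the 6 fits that left out 1 of its libraries, with an adjusted p of up to 0.151 without Riesling winter E-L 35 replicate 2. With the Riesling summer libraries labelled E-L 38 it was lower too (log2 fold change -1.95, adjusted p = 0.00181, SE 0.44), a call lost without Riesling summer E-L 35 replicate 3 (-1.25, adjusted p = 0.0456), Riesling summer E-L 38 replicate 1 (-1.65, adjusted p = 0.0162) or Riesling summer E-L 38 replicate 3 (-1.89, adjusted p = 0.0101).

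Of the other AUX1 genes, VIT_202s0025g01230 was higher at harvest in 3 of the 4 series, with mean levels at E-L 35, 36 and 38 of 4.17 ± 1.42, 11.9 ± 4.2 and 8.73 ± 0.586 FPKM in Riesling winter (SD, n = 3 each). In CS winter these means were 2.3 ± 0.334, 8.41 ± 1.21 and 11.7 ± 2.59 FPKM, and in CS summer 4.23 ± 0.608, 3.83 ± 0.637 and 12.3 ± 1.48 FPKM. The changes at E-L 38 were 1.21 (adjusted p = 4.3e-05, SE 0.23) in Riesling winter, 2.35 (adjusted p = 2.6e-09, SE 0.24) in CS winter and 1.64 (adjusted p = 1.9e-06, SE 0.22) in CS summer, with the Riesling call lost without Riesling winter E-L 35 replicate 2 (0.94, adjusted p = 0.00093). VIT_213s0067g00330 was higher at E-L 38 in Riesling winter (log2 fold change 1.71, adjusted p = 1.3e-08, SE 0.19) and CS summer (log2 fold change 2.27, adjusted p = 7.4e-10, SE 0.19). VIT_203s0038g02140 was higher at E-L 38 in Riesling winter (log2 fold change 1.57, adjusted p = 0.00203, SE 0.42), a call lost without Riesling winter E-L 35 replicate 2 (1.35, adjusted p = 0.0171), and in CS winter (log2 fold change 1.78, adjusted p = 0.00329, SE 0.49), a call lost without CS winter E-L 35 replicate 1 (1.42, adjusted p = 0.0302), CS winter E-L 35 replicate 2 (1.50, adjusted p = 0.0249) or CS winter E-L 38 replicate 2 (1.72, adjusted p = 0.0115). At E-L 36 of Riesling winter VIT_203s0038g02140 was called lower (log2 fold change -2.07). That call was lost without Riesling winter E-L 35 replicate 1 (-1.79, adjusted p = 0.0116) or Riesling winter E-L 36 replicate 3 (-1.76, adjusted p = 0.0162).

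**Figure D4:**
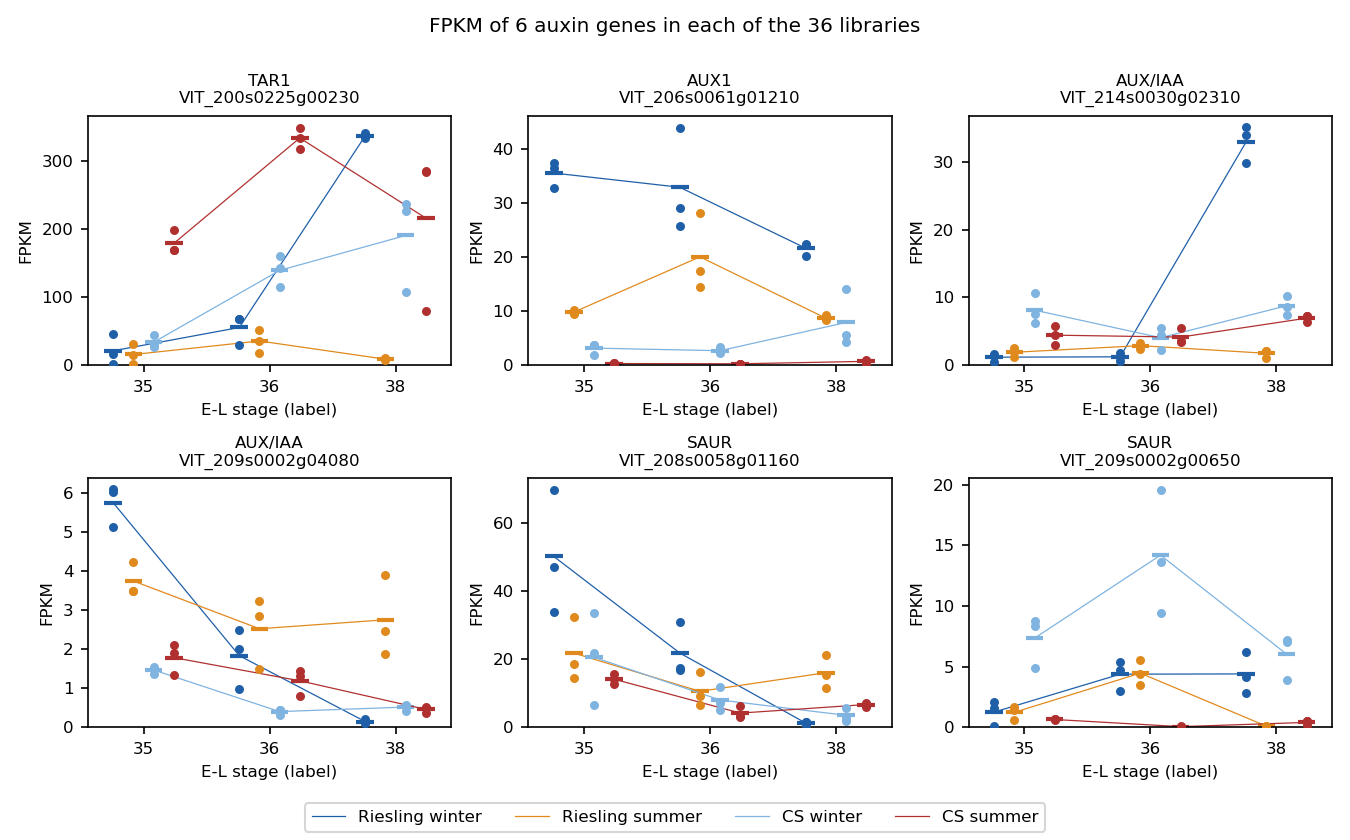
FPKM of 6 auxin genes in each of the 36 libraries (points), with the mean of 3 libraries as a bar joined by a line, against the labelled E-L stage; panels run from 0 and have their own scales. At E-L 38 of Riesling winter TAR1 lies at 334 to 341 FPKM and the AUX/IAA gene VIT_214s0030g02310, at 29.8 to 35.1 FPKM, above all other libraries, and the AUX1 gene VIT_206s0061g01210 is above CS in every Riesling condition.

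The 2 genes for TIR1 auxin receptors moved in different ways. VIT_200s0181g00040 (the unplaced chromosome Un, 7655005 to 7659416, minus strand) was higher after E-L 35 in both winter series, and VIT_207s0104g01320 (chromosome 7, 2351344 to 2355768, plus strand) was lower in CS summer. In Riesling winter, VIT_200s0181g00040 stood at 7.55, 6.16 and 6.95 FPKM at E-L 35, at 19.4, 18.4 and 15.6 FPKM at E-L 36 and at 21.4, 20 and 15.7 FPKM at E-L 38. In Riesling summer, VIT_200s0181g00040 stood at 13.3, 11.8 and 18 FPKM at E-L 35, at 12.1, 12.8 and 12.7 FPKM at E-L 36 and at 10.2, 9.37 and 10.5 FPKM at E-L 38. The E-L 35 libraries of Riesling winter were the lowest of all Riesling libraries. In CS winter, VIT_200s0181g00040 stood at 4.25, 4.47 and 7.27 FPKM at E-L 35, at 11.5, 14.4 and 11.6 FPKM at E-L 36 and at 13.6, 14.6 and 13.8 FPKM at E-L 38. In CS summer, VIT_200s0181g00040 stood at 11.2, 15.9 and 14.8 FPKM at E-L 35, at 14, 13.5 and 13.9 FPKM at E-L 36 and at 19.5, 18.6 and 19.7 FPKM at E-L 38. In CS winter too, E-L 35 did not overlap with the later stages. The changes were 1.53 (adjusted p = 2.5e-08, SE 0.16) and 1.61 (adjusted p = 1.4e-09, SE 0.16) at E-L 36 and 38 of Riesling winter and 1.38 (adjusted p = 1.1e-07, SE 0.16) and 1.38 (adjusted p = 2.8e-08, SE 0.16) in CS winter. With the summer libraries labelled E-L 38, Riesling was lower than CS (log2 fold change -1.06, adjusted p = 2e-06, SE 0.15). Its counts were fractional in all 36 libraries, so its level may include shared reads.

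In Riesling winter, VIT_207s0104g01320 stood at 5.82, 6.03 and 5.78 FPKM at E-L 35, at 7.08, 7 and 7.4 FPKM at E-L 36 and at 4, 3.26 and 2.87 FPKM at E-L 38. In Riesling summer, VIT_207s0104g01320 stood at 7.11, 7.53 and 13.7 FPKM at E-L 35, at 6.58, 7.46 and 7.4 FPKM at E-L 36 and at 3.67, 3.25 and 3.31 FPKM at E-L 38. In both Riesling seasons the E-L 38 libraries were below the earlier ones. In CS winter, VIT_207s0104g01320 stood at 7.36, 6.86 and 7.7 FPKM at E-L 35, at 6.31, 6.29 and 6.01 FPKM at E-L 36 and at 5.44, 4.35 and 4.08 FPKM at E-L 38. In CS summer, VIT_207s0104g01320 stood at 5.18, 8.34 and 8.55 FPKM at E-L 35, at 2.72, 2.97 and 2.76 FPKM at E-L 36 and at 3.2, 3.78 and 3.02 FPKM at E-L 38. In CS summer both later stages were below E-L 35. The gene was lower at E-L 36 of CS summer (log2 fold change -1.31, adjusted p = 3.2e-06, SE 0.17) and at E-L 38 (log2 fold change -1.03, adjusted p = 3.5e-05, SE 0.17), the second call being lost in 4 of the 6 fits that left out 1 of its libraries, where the change was under 2-fold, with an adjusted p of up to 0.00063 without CS summer E-L 35 replicate 3, and with the Riesling summer libraries labelled E-L 38 (log2 fold change -1.36, adjusted p = 1.5e-06, SE 0.17). At E-L 36 of summer Riesling was higher than CS (log2 fold change 1.17, adjusted p = 2.3e-06, SE 0.17).

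Of the 11 AUX/IAA repressor genes, 5 were lower at E-L 36 in Riesling winter (background 6.01% of all tested genes) and 4 in CS winter (5.62%). Their median log2 fold changes there were -0.96 and -0.84. In summer at E-L 36, 0 were lower in either cultivar (background 6.92% in Riesling and 5.04% in CS). There 0 were higher in Riesling (3.28%) and 1 in CS (1.46%), with medians of 0.44 and 0.03. VIT_207s0141g00270, VIT_205s0020g04670 and VIT_209s0002g04080 were lower at E-L 36 in both winter series. At E-L 38 of Riesling winter 3 AUX/IAA genes were higher and 5 lower (background 8.75% and 18%). In CS winter at this stage 1 was higher and 2 were lower (7.72% and 13.1%), and in CS summer 1 was higher and 1 lower (2.96% and 6.57%).

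The most abundant, VIT_209s0002g05150 (chromosome 9, 4850834 to 4853366, plus strand), stood above 90 FPKM in every library. In Riesling winter, VIT_209s0002g05150 stood at 185, 93.9 and 299 FPKM at E-L 35, at 187, 179 and 266 FPKM at E-L 36 and at 372, 389 and 417 FPKM at E-L 38. In Riesling summer, VIT_209s0002g05150 stood at 417, 318 and 113 FPKM at E-L 35, at 452, 454 and 352 FPKM at E-L 36 and at 425, 404 and 396 FPKM at E-L 38. At E-L 35 the 3 libraries of either Riesling season differed by more than 3-fold. In CS winter, VIT_209s0002g05150 stood at 212, 216 and 237 FPKM at E-L 35, at 353, 404 and 376 FPKM at E-L 36 and at 376, 498 and 460 FPKM at E-L 38. In CS summer, VIT_209s0002g05150 stood at 699, 594 and 600 FPKM at E-L 35, at 884, 870 and 883 FPKM at E-L 36 and at 465, 671 and 674 FPKM at E-L 38. At E-L 35 and 36 all CS summer libraries lay above all other libraries of the same stage. The gene was higher at E-L 38 of Riesling winter (log2 fold change 1.18, adjusted p = 0.00152, SE 0.31), a call lost without Riesling winter E-L 35 replicate 2 (0.85, adjusted p = 0.0196). Riesling was lower than CS at E-L 35 of summer (log2 fold change -1.22, adjusted p = 0.0025, SE 0.30), a call lost without CS summer E-L 35 replicate 1 (-1.11, adjusted p = 0.0137) or Riesling summer E-L 35 replicate 3 (-0.83, adjusted p = 0.014), and at E-L 36 (log2 fold change -1.24, adjusted p = 0.00148, SE 0.30), a call lost without Riesling summer E-L 36 replicate 3 (-1.13, adjusted p = 0.0113).

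VIT_214s0030g02310 (chromosome 14, 7536123 to 7537737, minus strand) was the AUX/IAA gene with the largest called rise at a later stage outside groups at the floor. In Riesling winter, VIT_214s0030g02310 stood at 1.57, 0.51 and 1.38 FPKM at E-L 35, at 0.66, 1.18 and 1.78 FPKM at E-L 36 and at 29.8, 34 and 35.1 FPKM at E-L 38. In Riesling summer, VIT_214s0030g02310 stood at 2.48, 1.92 and 1.23 FPKM at E-L 35, at 2.38, 2.91 and 3.28 FPKM at E-L 36 and at 2, 1.07 and 2.1 FPKM at E-L 38. Its harvest libraries of Riesling winter lay above all other 33 libraries. In CS winter, VIT_214s0030g02310 stood at 6.14, 7.58 and 10.6 FPKM at E-L 35, at 2.26, 5.43 and 4.39 FPKM at E-L 36 and at 10.2, 8.6 and 7.44 FPKM at E-L 38. In CS summer, VIT_214s0030g02310 stood at 5.75, 3.01 and 4.46 FPKM at E-L 35, at 3.34, 5.43 and 3.59 FPKM at E-L 36 and at 6.39, 7.18 and 7.18 FPKM at E-L 38. The rise at E-L 38 of Riesling winter was log2 fold change 4.96, adjusted p = 1.9e-11, SE 0.38. Riesling was below CS at E-L 35 and 36 of winter, with log2 fold changes of -2.95 (adjusted p = 5.7e-07, SE 0.38) and -1.90 (adjusted p = 0.00022, SE 0.38), and above CS at E-L 38 of winter (log2 fold change 1.88, adjusted p = 2.4e-05, SE 0.31). It was below CS with the summer libraries labelled E-L 38 (log2 fold change -2.12, adjusted p = 2.1e-05, SE 0.36) and at E-L 35 of summer (log2 fold change -1.36, adjusted p = 0.0035, SE 0.35), the E-L 35 call being lost without CS summer E-L 35 replicate 1 (-1.06, adjusted p = 0.0346), Riesling summer E-L 35 replicate 2 (-1.38, adjusted p = 0.0131) or Riesling summer E-L 35 replicate 3 (-1.13, adjusted p = 0.0284).

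VIT_209s0002g04080 (chromosome 9, 3749664 to 3754625, minus strand) took the opposite course. In Riesling winter, VIT_209s0002g04080 stood at 5.12, 6.03 and 6.09 FPKM at E-L 35, at 2.5, 2.01 and 0.98 FPKM at E-L 36 and at 0.11, 0.2 and 0.11 FPKM at E-L 38. In Riesling summer, VIT_209s0002g04080 stood at 3.5, 3.49 and 4.24 FPKM at E-L 35, at 3.22, 2.85 and 1.49 FPKM at E-L 36 and at 3.91, 2.47 and 1.87 FPKM at E-L 38. The 3 stages of Riesling winter were separate from each other, and in Riesling summer E-L 35 lay above E-L 36 while the libraries labelled E-L 38 overlapped with both. In CS winter, VIT_209s0002g04080 stood at 1.49, 1.36 and 1.54 FPKM at E-L 35, at 0.31, 0.43 and 0.45 FPKM at E-L 36 and at 0.57, 0.42 and 0.55 FPKM at E-L 38. In CS summer, VIT_209s0002g04080 stood at 1.33, 2.1 and 1.91 FPKM at E-L 35, at 1.45, 1.31 and 0.8 FPKM at E-L 36 and at 0.52, 0.36 and 0.48 FPKM at E-L 38. In CS the E-L 38 libraries were below the E-L 35 libraries in both seasons. The fall by E-L 38 was -5.08 (adjusted p = 1.1e-11, SE 0.38) in Riesling winter, -1.57 (adjusted p = 0.00016, SE 0.32) in CS winter and -1.86 (adjusted p = 8.5e-05, SE 0.33) in CS summer. At E-L 36 it was -1.52 (adjusted p = 9.5e-05, SE 0.28) in Riesling winter and -1.67 (adjusted p = 0.00019, SE 0.33) in CS winter. Riesling was above CS at E-L 35 and 36 of winter, by 1.83 (adjusted p = 8.4e-06, SE 0.28) and 1.98 (adjusted p = 1.8e-05, SE 0.32), and with the summer libraries labelled E-L 38, by 2.45 (adjusted p = 7.1e-07, SE 0.33). At harvest of winter it was below CS (log2 fold change -1.68, adjusted p = 0.0042, SE 0.45), a call lost in 4 of the 6 fits that left out 1 of its libraries, with an adjusted p of up to 0.0241 without Riesling winter E-L 38 replicate 3.

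The other 8 AUX/IAA genes held further calls. VIT_205s0020g01070 was higher at E-L 38 in Riesling winter (log2 fold change 2.39, adjusted p = 0.00028, SE 0.52), CS winter (log2 fold change 4.02, adjusted p = 8.6e-07, SE 0.57) and CS summer (log2 fold change 2.65, adjusted p = 0.00047, SE 0.55), the CS summer call being lost without CS summer E-L 38 replicate 1 (1.80, adjusted p = 0.0211). VIT_211s0016g04490 was lower at E-L 38 in Riesling winter (log2 fold change -2.81, adjusted p = 4.7e-13, SE 0.18) and CS winter (log2 fold change -1.50, adjusted p = 1.8e-08, SE 0.17), with means of 23.4 ± 1.4 and 171 ± 55.7 FPKM at E-L 38 and E-L 35 of Riesling winter (SD, n = 3 each). VIT_205s0020g04670 dipped at E-L 36 of winter in both cultivars. Its means at E-L 35, 36 and 38 were 50.4 ± 14.6, 8.85 ± 1.61 and 79 ± 2.67 FPKM in Riesling winter and 46.7 ± 15, 12.8 ± 1.72 and 71 ± 9.17 FPKM in CS winter. The E-L 36 changes were -2.33 (adjusted p = 4e-09, SE 0.21) and -1.70 (adjusted p = 2.4e-07, SE 0.20). VIT_211s0016g03540 was higher in Riesling than in CS at E-L 35, 36 and 38 of winter, by log2 fold changes of 2.34 (adjusted p = 3.6e-10, SE 0.20), 2.22 (adjusted p = 2.3e-09, SE 0.21) and 2.08 (adjusted p = 8.4e-09, SE 0.21). VIT_207s0005g04380, which overlaps a gene on the other strand, was lower at E-L 36 of Riesling winter (log2 fold change -1.47, adjusted p = 5.4e-06, SE 0.22).

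Of the 10 ARF transcription factor genes, 6 were lower at E-L 38 of Riesling winter (background 18% of all tested genes), with a median log2 fold change of -1.69. In CS winter 3 were lower (13.1%), and in CS summer 3 were lower (6.57%). At E-L 36 the ARF genes called were all lower, 5 in Riesling winter (background 6.01%), 3 in Riesling summer (6.92%), 2 in CS winter (5.62%) and 3 in CS summer (5.04%). These counts moved with single libraries: the 5 in Riesling winter became 2 without E-L 35 replicate 2 or any 1 of the 3 E-L 36 libraries and 3 without E-L 35 replicate 3, the 3 in Riesling summer became 1 without E-L 35 replicate 3 or E-L 36 replicate 3, and the 2 in CS winter became 1 without E-L 35 replicate 3 or E-L 36 replicate 3. VIT_202s0025g01740 was lower in all 8 stage comparisons. Its log2 fold changes were -1.58 and -2.66 at E-L 36 and 38 of Riesling winter, -1.32 and -1.30 in CS winter, -1.36 at both stages of CS summer, -1.05 at E-L 36 of Riesling summer and -1.33 with the Riesling summer libraries labelled E-L 38. The Riesling summer calls depended on single libraries: the E-L 36 call was lost without Riesling summer E-L 35 replicate 3 (-0.55, adjusted p = 0.06), Riesling summer E-L 36 replicate 2 (under 2-fold, adjusted p = 0.00799) or Riesling summer E-L 36 replicate 3 (-0.93, adjusted p = 0.0118), and the other call was lost without Riesling summer E-L 35 replicate 3 (-0.83, adjusted p = 0.0102).

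The most abundant ARF gene, VIT_217s0000g00320 (chromosome 17, 224860 to 230745, plus strand), changed by less than 2-fold against E-L 35 in all 8 stage comparisons. In Riesling winter, VIT_217s0000g00320 stood at 59, 66.7 and 58.8 FPKM at E-L 35, at 46.7, 46 and 35.3 FPKM at E-L 36 and at 68.9, 71.2 and 71.5 FPKM at E-L 38. In Riesling summer, VIT_217s0000g00320 stood at 40.6, 44.5 and 59 FPKM at E-L 35, at 62.1, 73.3 and 59.8 FPKM at E-L 36 and at 40.9, 40.1 and 33.9 FPKM at E-L 38. Its Riesling libraries all lay above 33 FPKM. In CS winter, VIT_217s0000g00320 stood at 40.8, 39.5 and 45.5 FPKM at E-L 35, at 34.2, 32.1 and 31.8 FPKM at E-L 36 and at 69, 55.1 and 52 FPKM at E-L 38. In CS summer, VIT_217s0000g00320 stood at 24.1, 30.4 and 31.5 FPKM at E-L 35, at 23.6, 24.3 and 24.6 FPKM at E-L 36 and at 29.6, 28 and 26.9 FPKM at E-L 38. In summer, all Riesling libraries lay above all CS libraries. At E-L 36 of summer it was higher in Riesling than in CS (log2 fold change 1.25, adjusted p = 1.9e-09, SE 0.12), as were 5 other ARF genes (background 9.26% of all tested genes), and the median of the 10 there was 1.27.

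VIT_215s0046g00290 (chromosome 15, 17300263 to 17305088, minus strand) was low and uneven between replicates. In Riesling winter, VIT_215s0046g00290 stood at 1.75, 5.6 and 5.02 FPKM at E-L 35, at 0.58, 0.54 and 0.95 FPKM at E-L 36 and at 1.84, 1.75 and 1.27 FPKM at E-L 38. In Riesling summer, VIT_215s0046g00290 stood at 2.14, 3.66 and 11.1 FPKM at E-L 35, at 1.93, 1.57 and 1.07 FPKM at E-L 36 and at 1, 1.32 and 0.62 FPKM at E-L 38. In either Riesling season the E-L 36 libraries lay below those of E-L 35. In CS winter, VIT_215s0046g00290 stood at 0.87, 0.49 and 1.18 FPKM at E-L 35, at 0.2, 0.45 and 0.46 FPKM at E-L 36 and at 3.39, 2.4 and 2.17 FPKM at E-L 38. In CS summer, VIT_215s0046g00290 stood at 0.17, 6.25 and 6.61 FPKM at E-L 35, at 0.26, 0.25 and 0.08 FPKM at E-L 36 and at 0.17, 0.27 and 0.24 FPKM at E-L 38. The gene was lower at E-L 36 (log2 fold change -4.30, adjusted p = 0.00032, SE 0.81) and E-L 38 (log2 fold change -4.13, adjusted p = 0.00037, SE 0.83) of CS summer, although E-L 35 replicate 1 stood far below the other 2 replicates and overlapped with the later stages. It was also lower at E-L 36 of Riesling winter (log2 fold change -2.38, adjusted p = 0.00834, SE 0.70), a call lost in 5 of the 6 fits that left out 1 of its libraries, with an adjusted p of up to 0.0423 without Riesling winter E-L 36 replicate 2. Riesling was above CS at E-L 36 of summer (log2 fold change 2.72, adjusted p = 0.00887, SE 0.83), a call lost in 6 of the 6 fits that left out 1 of its libraries, with an adjusted p of up to 0.0452 without CS summer E-L 36 replicate 3.

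VIT_200s1203g00010 (the unplaced chromosome Un, 37806845 to 37809889, minus strand) was called higher in Riesling than in CS in most comparisons. The exception was E-L 38 of winter, where it was not called. In Riesling winter, VIT_200s1203g00010 stood at 2.97, 2.86 and 5.63 FPKM at E-L 35, at 0.93, 1.52 and 0.9 FPKM at E-L 36 and at 0.39, 0.6 and 0.55 FPKM at E-L 38. In Riesling summer, VIT_200s1203g00010 stood at 4.55, 5.78 and 6.08 FPKM at E-L 35, at 1.07, 1.35 and 1.2 FPKM at E-L 36 and at 4.59, 4.81 and 5.42 FPKM at E-L 38. The Riesling summer libraries labelled E-L 38 were as high as those of E-L 35, and those of E-L 36 were lower. In CS winter, VIT_200s1203g00010 stood at 0.2, 0.3 and 0.58 FPKM at E-L 35, at 0, 0 and 0 FPKM at E-L 36 and at 0, 0.12 and 0.23 FPKM at E-L 38. In CS summer, VIT_200s1203g00010 stood at 0.89, 0.33 and 0.64 FPKM at E-L 35, at 0.21, 0 and 0.15 FPKM at E-L 36 and at 0, 0 and 0 FPKM at E-L 38. In CS no library reached 1 FPKM and 4 conditions were at the floor of at most 3 counts per library. Riesling was higher at E-L 35 of winter (log2 fold change 3.17, adjusted p = 1.5e-05, SE 0.49) and summer (log2 fold change 2.93, adjusted p = 5.6e-06, SE 0.41), and at E-L 36 of winter (at least 3.51-fold higher against the floor, adjusted p = 5.8e-06) and summer (at least 3.2-fold higher against the floor, adjusted p = 0.00037). With the summer libraries labelled E-L 38 the difference was larger (at least 10.3-fold higher against the floor, adjusted p = 2.1e-08). Within Riesling the gene was lower at E-L 38 of winter (log2 fold change -2.72, adjusted p = 2.6e-05, SE 0.47) and at E-L 36 of summer (log2 fold change -2.17, adjusted p = 0.00014, SE 0.40). Its counts were fractional in all 28 libraries that list it, so reads may have been shared with other genes.

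The ARF neighbours VIT_204s0079g00200 and VIT_204s0079g00160, which lie 30201 bases apart on chromosome 4 with 1 gene between them, were both lower at E-L 38 in Riesling winter, with log2 fold changes of -1.72 (adjusted p = 1.2e-10, SE 0.15) and -1.65 (adjusted p = 2.2e-07, SE 0.22), and in CS winter, with -1.83 (adjusted p = 3.2e-11, SE 0.15) and -1.66 (adjusted p = 2e-07, SE 0.21). VIT_210s0003g00420 was lower at E-L 38 of Riesling winter (log2 fold change -2.42, adjusted p = 4.7e-13, SE 0.15), with means of 5.07 ± 0.255 FPKM there and 29.8 ± 5.88 FPKM at E-L 35 (SD, n = 3 each). VIT_210s0003g04100, whose counts were fractional in 35 libraries, was lower at E-L 38 of Riesling winter (log2 fold change -2.10, adjusted p = 2.6e-07, SE 0.28) and at E-L 36 of CS summer (log2 fold change -1.88, adjusted p = 1.3e-05, SE 0.27).

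Among the 5 GH3 genes, whose enzymes conjugate auxin, 1 was higher and 2 lower at E-L 38 of CS winter (background 7.72% and 13.1% of all tested genes). In Riesling winter at this stage 1 was higher and 1 lower (8.75% and 18%). At E-L 36, 1 was higher and 2 lower in CS winter (3.78% and 5.62%). In Riesling winter at E-L 36, 1 was higher and 0 lower (4.13% and 6.01%). VIT_203s0091g00310 (chromosome 3, 6633349 to 6636203, plus strand) had the highest level of the family. In Riesling winter, VIT_203s0091g00310 stood at 96, 103 and 111 FPKM at E-L 35, at 73.7, 63.6 and 59.7 FPKM at E-L 36 and at 54.6, 51.3 and 61.6 FPKM at E-L 38. In Riesling summer, VIT_203s0091g00310 stood at 41.2, 39.1 and 51.9 FPKM at E-L 35, at 64, 43.2 and 48.4 FPKM at E-L 36 and at 39.3, 39.7 and 16.4 FPKM at E-L 38. The E-L 35 libraries of Riesling winter were above all other Riesling libraries. In CS winter, VIT_203s0091g00310 stood at 102, 103 and 78.3 FPKM at E-L 35, at 42.8, 35.3 and 38.9 FPKM at E-L 36 and at 54.8, 41.8 and 42.6 FPKM at E-L 38. In CS summer, VIT_203s0091g00310 stood at 72.1, 67.1 and 64.9 FPKM at E-L 35, at 50.9, 53.2 and 55.9 FPKM at E-L 36 and at 26.6, 55.6 and 52.7 FPKM at E-L 38. In CS winter, E-L 35 did not overlap with the later stages. There the gene was lower at E-L 36 (log2 fold change -1.13, adjusted p = 0.00034, SE 0.23) and at E-L 38 (log2 fold change -1.03, adjusted p = 0.00046, SE 0.23), the E-L 38 call being lost in 4 of the 6 fits that left out 1 of its libraries, where the change was under 2-fold, with an adjusted p of up to 0.00411 without CS winter E-L 38 replicate 2.

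VIT_219s0014g04690 (chromosome 19, 5015808 to 5019120, plus strand), which overlaps a gene on the other strand, was near 0 in most libraries. In Riesling winter, VIT_219s0014g04690 stood at 0.67, 0.5 and 0.32 FPKM at E-L 35, at 0.48, 0.46 and 0.09 FPKM at E-L 36 and at 0.67, 0.68 and 1.22 FPKM at E-L 38. In Riesling summer, VIT_219s0014g04690 stood at 0.13, 0.33 and 0.24 FPKM at E-L 35, at 0.02, 0 and 0.48 FPKM at E-L 36 and at 0.03, 0 and 0 FPKM at E-L 38. Only Riesling winter and CS winter had libraries above 0.6 FPKM. In CS winter, VIT_219s0014g04690 stood at 0.12, 0.21 and 0.06 FPKM at E-L 35, at 0.17, 0.17 and 0.24 FPKM at E-L 36 and at 3.28, 1.06 and 0.82 FPKM at E-L 38. In CS summer, VIT_219s0014g04690 stood at 0.54, 0.06 and 0.11 FPKM at E-L 35, at 0, 0 and 0.06 FPKM at E-L 36 and at 0.03, 0.04 and 0.07 FPKM at E-L 38. The rise at E-L 38 of CS winter was log2 fold change 3.73, adjusted p = 0.00086, SE 0.89.

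VIT_212s0059g01870 (chromosome 12, 6726586 to 6729757, plus strand) was higher at harvest in Riesling winter (log2 fold change 3.11, adjusted p = 1.5e-05, SE 0.54) and stayed low in CS. In Riesling winter, VIT_212s0059g01870 stood at 0.28, 0.08 and 0.54 FPKM at E-L 35, at 0.31, 0.52 and 0.91 FPKM at E-L 36 and at 2.28, 2.8 and 1.64 FPKM at E-L 38. In Riesling summer, VIT_212s0059g01870 stood at 0.51, 0.29 and 0.1 FPKM at E-L 35, at 0.47, 0.83 and 0.51 FPKM at E-L 36 and at 0.94, 0.73 and 1.27 FPKM at E-L 38. The harvest libraries of Riesling winter were the highest of all. In CS winter, VIT_212s0059g01870 stood at 0.25, 0.21 and 0.11 FPKM at E-L 35, at 0.3, 0.29 and 0.52 FPKM at E-L 36 and at 0.19, 0.15 and 0.15 FPKM at E-L 38. In CS summer, VIT_212s0059g01870 stood at 0.34, 0.71 and 0.35 FPKM at E-L 35, at 0.49, 0.29 and 0.44 FPKM at E-L 36 and at 0, 0.25 and 0.15 FPKM at E-L 38. Riesling was above CS at E-L 38 of winter (log2 fold change 3.78, adjusted p = 5.7e-06, SE 0.56) and with the summer libraries labelled E-L 38 (log2 fold change 2.70, adjusted p = 0.00073, SE 0.62). Of the other GH3 genes, VIT_207s0104g00800 was higher at E-L 36 in Riesling winter (log2 fold change 1.21, adjusted p = 6.7e-07, SE 0.15) and CS winter (log2 fold change 1.33, adjusted p = 1.1e-07, SE 0.15). VIT_201s0150g00300 was lower at E-L 38 in Riesling winter (log2 fold change -2.84, adjusted p = 0.00016, SE 0.59) and in CS winter (log2 fold change -1.97, adjusted p = 0.00255, SE 0.53), the CS call being lost without CS winter E-L 35 replicate 3 (-1.51, adjusted p = 0.0324) or CS winter E-L 38 replicate 3 (-1.83, adjusted p = 0.0133).

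Of the 10 SAUR genes, 4 were higher and 4 lower at E-L 38 of Riesling winter (background 8.75% and 18% of all tested genes), and 2 were higher and 4 lower in CS winter (7.72% and 13.1%). The 2 higher in CS winter became 1 in each of the 6 fits that left out 1 library. The 4 genes lower in Riesling winter, VIT_208s0058g01160, VIT_203s0038g00940, VIT_210s0003g05755 and VIT_211s0016g00500, were the 4 lower in CS winter. The most abundant, VIT_216s0098g01150 (chromosome 16, 21395038 to 21395826, minus strand), was the family's main transcript. In Riesling winter, VIT_216s0098g01150 stood at 110, 118 and 123 FPKM at E-L 35, at 113, 112 and 159 FPKM at E-L 36 and at 102, 94 and 91.2 FPKM at E-L 38. In Riesling summer, VIT_216s0098g01150 stood at 150, 139 and 37.7 FPKM at E-L 35, at 158, 122 and 208 FPKM at E-L 36 and at 183, 185 and 186 FPKM at E-L 38. In Riesling winter the E-L 38 libraries were the lowest, and in Riesling summer those labelled E-L 38 were above those of E-L 35. In CS winter, VIT_216s0098g01150 stood at 65, 72.5 and 31.6 FPKM at E-L 35, at 65.1, 48.3 and 59.3 FPKM at E-L 36 and at 191, 109 and 111 FPKM at E-L 38. In CS summer, VIT_216s0098g01150 stood at 114, 93.4 and 94.3 FPKM at E-L 35, at 138, 155 and 137 FPKM at E-L 36 and at 164, 140 and 145 FPKM at E-L 38. It was higher at E-L 38 of CS winter (log2 fold change 1.28, adjusted p = 0.00135, SE 0.32), a call lost without CS winter E-L 35 replicate 3 (0.99, adjusted p = 0.016) or CS winter E-L 38 replicate 1 (0.98, adjusted p = 0.0165).

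VIT_208s0058g01160 (chromosome 8, 10591718 to 10592252, plus strand) had the largest called fall among the SAUR genes. In Riesling winter, VIT_208s0058g01160 stood at 33.8, 70 and 47.1 FPKM at E-L 35, at 16.9, 17.5 and 31.1 FPKM at E-L 36 and at 1.36, 1.55 and 0.63 FPKM at E-L 38. In Riesling summer, VIT_208s0058g01160 stood at 18.5, 32.4 and 14.5 FPKM at E-L 35, at 6.46, 9.04 and 16.1 FPKM at E-L 36 and at 21.2, 15.3 and 11.6 FPKM at E-L 38. All harvest libraries of Riesling winter lay below 2 FPKM and all E-L 35 libraries above 30 FPKM. In CS winter, VIT_208s0058g01160 stood at 33.5, 21.8 and 6.4 FPKM at E-L 35, at 11.9, 5.04 and 7.02 FPKM at E-L 36 and at 5.7, 1.87 and 2.82 FPKM at E-L 38. In CS summer, VIT_208s0058g01160 stood at 15.6, 14.1 and 12.6 FPKM at E-L 35, at 6.15, 3.33 and 2.89 FPKM at E-L 36 and at 6.78, 5.98 and 7.18 FPKM at E-L 38. The fall by E-L 38 was -5.23 (adjusted p = 2.2e-08, SE 0.60) in Riesling winter and -2.70 (adjusted p = 6e-05, SE 0.51) in CS winter. VIT_210s0003g05755 was lower too, with log2 fold changes of -2.58 (adjusted p = 1.1e-09, SE 0.25) and -3.13 (adjusted p = 2.4e-12, SE 0.22), and had means of 2.01 ± 0.712 FPKM in Riesling winter and 3.65 ± 0.994 FPKM in CS winter at E-L 38 (SD, n = 3 each). VIT_203s0038g00940 was lower at E-L 38 in Riesling winter (log2 fold change -2.79, adjusted p = 5.4e-10, SE 0.26), CS winter (log2 fold change -2.27, adjusted p = 7.6e-10, SE 0.21) and CS summer (log2 fold change -1.48, adjusted p = 2.5e-06, SE 0.20).

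VIT_209s0002g00650 (chromosome 9, 445796 to 446624, plus strand) differed with stage, cultivar and season. In Riesling winter, VIT_209s0002g00650 stood at 0.12, 2.03 and 1.57 FPKM at E-L 35, at 5.39, 4.74 and 2.97 FPKM at E-L 36 and at 6.22, 4.16 and 2.79 FPKM at E-L 38. In Riesling summer, VIT_209s0002g00650 stood at 1.39, 1.67 and 0.59 FPKM at E-L 35, at 3.47, 4.36 and 5.53 FPKM at E-L 36 and at 0.11, 0.12 and 0 FPKM at E-L 38. E-L 36 was above E-L 35 in both Riesling seasons. In CS winter, VIT_209s0002g00650 stood at 8.78, 8.34 and 4.9 FPKM at E-L 35, at 9.38, 19.6 and 13.6 FPKM at E-L 36 and at 7.17, 7.02 and 3.89 FPKM at E-L 38. In CS summer, VIT_209s0002g00650 stood at 0.66, 0.66 and 0.56 FPKM at E-L 35, at 0.11, 0 and 0 FPKM at E-L 36 and at 0.5, 0.14 and 0.52 FPKM at E-L 38. Every CS winter library was above every CS summer library. The gene was higher at E-L 36 (log2 fold change 1.98, adjusted p = 0.00211, SE 0.49) and E-L 38 (log2 fold change 1.98, adjusted p = 0.00105, SE 0.49) of Riesling winter, the E-L 36 call being lost without Riesling winter E-L 35 replicate 1 (1.44, adjusted p = 0.0136). It was higher at E-L 36 of Riesling summer (log2 fold change 1.83, adjusted p = 0.00344, SE 0.48), a call lost without Riesling summer E-L 35 replicate 3 (1.51, adjusted p = 0.0278) or Riesling summer E-L 36 replicate 3 (1.64, adjusted p = 0.0152), and lower with the libraries labelled E-L 38 (at least 3.51-fold lower against the floor, adjusted p = 0.00275), a call lost without Riesling summer E-L 35 replicate 2 (-3.43, adjusted p = 0.0141), Riesling summer E-L 38 replicate 1 (-4.08, adjusted p = 0.0101) or Riesling summer E-L 38 replicate 3 (-3.19, adjusted p = 0.0187). At E-L 36 of CS summer it was lower (at least 1.99-fold lower against the floor, adjusted p = 0.00945), a call lost in 6 of the 6 fits that left out 1 of its libraries, with an adjusted p of up to 0.0518 without CS summer E-L 36 replicate 2. Riesling was below CS at E-L 35 and 36 of winter, with log2 fold changes of -2.74 (adjusted p = 4.7e-05, SE 0.48) and -1.88 (adjusted p = 0.00068, SE 0.41), and above it at E-L 36 of summer (at least 14.2-fold higher against the floor, adjusted p = 3e-07).

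VIT_208s0040g01390 (chromosome 8, 12513557 to 12514045, plus strand) was higher at harvest in both winter series. In Riesling winter, VIT_208s0040g01390 stood at 1.22, 3.75 and 2.99 FPKM at E-L 35, at 2.24, 3.4 and 3.77 FPKM at E-L 36 and at 5.76, 7.28 and 6.05 FPKM at E-L 38. In Riesling summer, VIT_208s0040g01390 stood at 1.01, 2.71 and 2.84 FPKM at E-L 35, at 2.24, 2.86 and 2.62 FPKM at E-L 36 and at 1.61, 2.08 and 0.98 FPKM at E-L 38. Only the harvest libraries of Riesling winter reached 5 FPKM among the Riesling libraries. In CS winter, VIT_208s0040g01390 stood at 3.7, 2.83 and 3.81 FPKM at E-L 35, at 5.91, 5.1 and 5.45 FPKM at E-L 36 and at 6.76, 7.79 and 8.94 FPKM at E-L 38. In CS summer, VIT_208s0040g01390 stood at 1.81, 1.92 and 2.86 FPKM at E-L 35, at 1.55, 1.84 and 1.5 FPKM at E-L 36 and at 3.07, 4.81 and 1.58 FPKM at E-L 38. The rise at E-L 38 was log2 fold change 1.41, adjusted p = 0.00105, SE 0.35 in Riesling winter, a call lost without Riesling winter E-L 35 replicate 1 (1.08, adjusted p = 0.0123), and log2 fold change 1.17, adjusted p = 0.0037, SE 0.33 in CS winter, a call lost in 4 of the 6 fits that left out 1 of its libraries, with an adjusted p of up to 0.0226 without CS winter E-L 35 replicate 2.

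Whether the stage changes differed between the cultivars was tested as the difference of the changes, Riesling minus CS, a test added after the data had been seen and judged by the adjusted p alone. From E-L 35 to 36, 10 auxin genes differed in summer, 8 of them with the larger value in Riesling (background 8.33%), and 2 differed in winter (2.2%), both larger in Riesling. From E-L 35 to 38, 11 differed in winter, 3 larger and 8 smaller in Riesling (12%), and 7 differed in summer with the libraries labelled E-L 38 (6.59%). In winter to E-L 38, VIT_214s0030g02310 (difference 4.83, adjusted p = 1.3e-07, SE 0.49) and VIT_209s0002g04080 (difference -3.51, adjusted p = 2.3e-05, SE 0.52), both AUX/IAA genes, differed in opposite directions. The ARF gene VIT_210s0003g00420 fell further in Riesling (difference -1.54, adjusted p = 8.8e-06, SE 0.21), and the SAUR gene VIT_203s0038g01310 differed in favour of Riesling (difference 2.55, adjusted p = 2.1e-05, SE 0.38). In summer to E-L 36, 4 ARF genes had the larger value in Riesling and 1 the smaller, VIT_204s0079g00200 (difference -0.84, adjusted p = 0.00333, SE 0.20). The 4 became 2 in 7 of the 12 fits that left out 1 library. The 2 called in all 12 fits were VIT_208s0040g01810 (difference 1.42, adjusted p = 0.00036, SE 0.26) and VIT_210s0003g04100 (difference 1.88, adjusted p = 0.00076, SE 0.37). The 7 in summer to E-L 38 became 2 without CS summer E-L 38 replicate 1 and 4 without CS summer E-L 35 replicate 2, CS summer E-L 38 replicate 3 or replicate 1 of the Riesling libraries labelled E-L 38. The 10 in summer to E-L 36 became 6 without CS summer E-L 36 replicate 3, and the 2 in winter to E-L 36 became 1 in 9 of the 12 fits that left out 1 library.

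The seasonal differences, on which the list is treated as chosen, are described without printed p-values. The limits of the call still include the adjusted p of edgeR's test, so the counts below are calls of that test, given as description alone. In winter against summer berries, 7 auxin genes were past the limits of the call in the higher and 4 in the lower direction at E-L 35 of Riesling (5.54% and 4.48% of all tested genes), and 2 and 4 at E-L 36 (4.65% and 2.48%). The 11 at E-L 35 became 7 without Riesling winter E-L 35 replicate 2. With the Riesling summer libraries labelled E-L 38 these counts were 15 and 15 (11.8% and 16.1%). In CS they were 2 higher and 5 lower at E-L 35 (4.54% and 5.83%), 7 and 11 at E-L 36 (6.5% and 5.82%), and 9 and 10 at E-L 38 (7.29% and 9.9%). Over the 6 comparisons 46 of the 51 genes were past the limits at least once (45.2% of all tested genes), and 36 over the 5 that do not use the libraries labelled E-L 38 of Riesling summer (34.6%). Nothing is read from these counts, since the list is treated as chosen on this contrast. Just inside the limits were the ARF gene VIT_217s0000g00320, whose largest called seasonal change was 1.01 (SE 0.12) at E-L 38 of CS, and the AUX1 gene VIT_218s0001g00320 at 1.02 (SE 0.20) with the Riesling libraries labelled E-L 38. Just outside were the YUCCA genes VIT_207s0104g01250, at -0.96 (SE 0.15) in that same comparison, and VIT_204s0023g01480, at 0.89 (SE 0.29) at E-L 36 of CS.

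By family, and again as description alone, 7 of 11 AUX/IAA genes were past the limits lower and 0 higher in winter at E-L 36 of CS. Over all tested genes these shares were 5.82% and 6.5%. Of the 7, 5 stayed past the limits in every fit that left out 1 library. At E-L 36 of Riesling 3 of 11 were lower and 0 higher (2.48% and 4.65% of all tested genes). VIT_211s0016g03540 was lower in winter by log2 fold changes of -1.51 (SE 0.20), -2.27 (SE 0.21) and -3.20 (SE 0.21) at E-L 35, 36 and 38 of CS and of -1.42 (SE 0.18) at E-L 36 of Riesling. The AUX1 gene VIT_206s0061g01210 was higher in winter at all stages of CS, by 3.43 (SE 0.44), 3.70 (SE 0.52) and 3.49 (SE 0.42), and by 1.87 (SE 0.31) at E-L 35 of Riesling. The SAUR gene VIT_209s0002g00650 was higher in winter in CS by 3.59 (SE 0.48) at E-L 35 and 3.85 (SE 0.58) at E-L 38, and at least 45.4-fold higher at E-L 36, where the summer libraries were at the floor. TAR1 was lower in winter at E-L 35 of CS, by -2.37 (SE 0.69), although it was past the limits in 0 of the 6 fits that left out 1 of its libraries. TAR2 was lower in winter at E-L 36 of CS, by -1.26 (SE 0.22). The GH3 gene VIT_207s0104g00800 was higher in winter by 1.49 (SE 0.15) at E-L 36 of CS, and VIT_219s0014g04690 was at least 15.7-fold higher in winter at E-L 38 of CS. Against the Riesling summer libraries labelled E-L 38, winter berries had more TAR1 (5.37 (SE 0.80)) and more VIT_214s0030g02310 (4.32 (SE 0.36)) and less of the SAUR genes VIT_210s0003g05755 (-4.24 (SE 0.24)) and VIT_208s0058g01160 (-3.67 (SE 0.61)), in libraries that also differ on the ripening index.

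**Figure D5:**
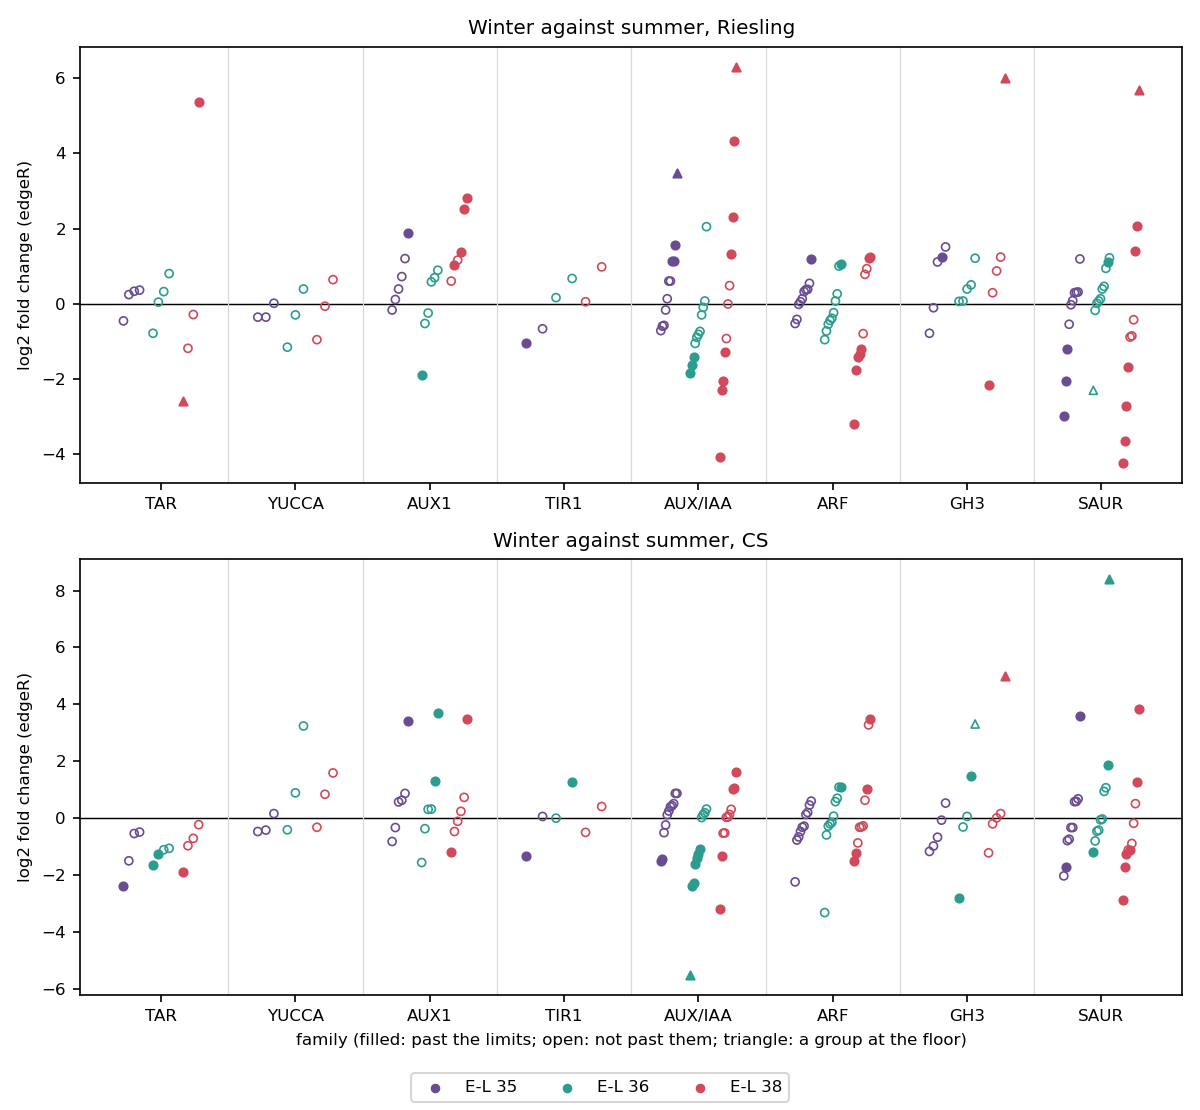
Log2 fold change of each auxin gene in winter against summer berries from edgeR, by family, in Riesling (upper panel) and CS (lower panel), coloured by E-L stage. Filled marks were past the limits of the call (adjusted p at most 0.01 and at least 2-fold), and triangles mark comparisons with a group at the floor. At E-L 36 of CS 7 of 11 AUX/IAA genes are filled below 0 (5.82% of all tested genes). At E-L 38 of Riesling, where the summer libraries go against their label, 15 genes are filled above and 15 below 0 (11.8% and 16.1% of all tested genes).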

How the data were processed

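RNA of whole pericarp was sequenced in 36 libraries as single reads and aligned (with Bowtie, per the submitters' processing notes) to the 12X V2 grape assembly and its gene annotation by the authors, who deposited, for each library and gene, an estimated count and an FPKM value (fragments scaled by transcript length and library size). Per the deposited tables, 23.8% to 28.9% of the estimated counts in a library were fractional, as happens where reads that fit several genes are divided between them. The deposited table of the whole series also holds 36 numbered columns that no label names, and these were not used.

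After rounding of the estimated counts to integers and a filter with filterByExpr (20183 of 28441 genes kept), 1 model of the 12 conditions was fitted with TMM scaling and the quasi-likelihood F-test of edgeR 4.0.16 in R 4.3.3. P-values were adjusted by the Benjamini-Hochberg method over the 20183 genes. Calls needed an adjusted p no larger than 0.01 together with a 2-fold change, SE is the standard error of the log2 fold change, and 3 counts per library served as the floor. Alternatives were DESeq2 1.42.0, RLE size factors, no filter, a fit of the compared libraries alone, limma 3.58.1 on log2(FPKM + 1) and log2(FPKM + 0.1), a replicate block and leaving out each library. The test of the difference between cultivars in stage change and a fit of 33 libraries without the Riesling summer libraries labelled E-L 38 were added after the data had been seen. The scripts were tested on simulated data.

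The members and lists were chosen with earlier results of these data known. Values of every library are given for the most abundant member of each family, the 2 members of each family with the largest called change, and 6 members that the study names (TAR1, TAR2, 2 GH3 genes and 2 SAUR genes). Replicate numbers are shared between groups in the labels without a stated common origin. Over 17452 genes, same-numbered libraries deviated together, with all 3 correlations above 0.1, in 2 of the 20 comparisons: Riesling summer E-L 36 against E-L 35 (0.147, 0.105 and 0.252) and Riesling E-L 36, winter against summer (0.134, 0.151 and 0.278). No genome or promoter sequence was used here, so the planned search for auxin response motifs was not run. None of the gene identifiers was found in the reference name table used, so names are those of the study.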

Additional observations from a re-analysis of the deposited data

Results flagged for a closer look

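In 13 cases a gene whose libraries are all printed above changed with stage in a different way in Riesling than in CS, by the test of the difference itself (edgeR, Riesling minus CS, log2 scale, adjusted p of at most 0.01). Many of these genes were printed because of a large called change between stages or cultivars in the same libraries, so their differences are not independent of that choice. Of all tested genes, 8.33% differed in summer and 2.2% in winter to E-L 36. To E-L 38, 12% differed in winter and 6.59% in summer. No explanation was tested for any of the 13 cases.

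From E-L 35 to 36 in summer, the difference was 5.54 (adjusted p = 0.00091, SE 1.11) for the SAUR gene VIT_209s0002g00650, 0.93 (adjusted p = 0.0062, SE 0.23) for the TIR1 gene VIT_207s0104g01320 and 0.63 (adjusted p = 0.00938, SE 0.17) for the ARF gene VIT_217s0000g00320. The CS summer libraries of the SAUR gene at E-L 36 were at the floor, so its fitted size depends on the prior count and is no bound, and it ran from 5.03 to 7.51 when 1 library was left out. The TIR1 difference lost its call in 9 of the 12 fits that left out 1 of its libraries, with an adjusted p of up to 0.0247 without CS summer E-L 35 replicate 3, and the ARF difference in 9 of the 12 fits that left out 1 of its libraries, with an adjusted p of up to 0.0343 without Riesling summer E-L 36 replicate 2.

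From E-L 35 to 38 in winter, the difference was 4.83 (adjusted p = 1.3e-07, SE 0.49) for the AUX/IAA gene VIT_214s0030g02310 and -3.51 (adjusted p = 2.3e-05, SE 0.52) for the AUX/IAA gene VIT_209s0002g04080, and both kept their calls in the 12 fits that left out 1 library. The YUCCA gene VIT_207s0104g01260 differed by -6.09 (adjusted p = 0.0018, SE 1.36), made up of a called rise in CS (log2 fold change 4.07) and lower values in Riesling that were not called (-2.02, adjusted p = 0.0614). The AUX1 gene VIT_206s0061g01210 differed by -1.88 (adjusted p = 0.00303, SE 0.45), a call lost without CS winter E-L 35 replicate 3 (-1.61, adjusted p = 0.0139) or CS winter E-L 38 replicate 1 (-1.21, adjusted p = 0.0214). The GH3 gene VIT_212s0059g01870 differed by 3.38 (adjusted p = 0.00595, SE 0.87), a call lost in 8 of the 12 fits that left out 1 of its libraries, with an adjusted p of up to 0.0289 without CS winter E-L 35 replicate 1.

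From E-L 35 to 38 in summer, the differences rest on the Riesling libraries that go against their label, and without them they cannot be computed. They were 0.96 (adjusted p = 0.0021, SE 0.21) for the YUCCA gene VIT_207s0104g01250, -5.67 (adjusted p = 0.00556, SE 1.36) for the YUCCA gene VIT_207s0104g01260, -0.98 (adjusted p = 0.00255, SE 0.21) for the TIR1 gene VIT_200s0181g00040, 5.45 (adjusted p = 0.00333, SE 1.20) for the ARF gene VIT_200s1203g00010 and 3.36 (adjusted p = 0.0072, SE 0.84) for the GH3 gene VIT_212s0059g01870. The YUCCA gene VIT_207s0104g01250 lost its call without CS summer E-L 38 replicate 1 (0.84, adjusted p = 0.0112), VIT_207s0104g01260 in 7 of the 12 fits that left out 1 of its libraries, with an adjusted p of up to 0.0201 without Riesling summer E-L 35 replicate 3, VIT_200s1203g00010 without CS summer E-L 38 replicate 1 (5.44, adjusted p = 0.0157), CS summer E-L 38 replicate 2 (5.44, adjusted p = 0.0109) or CS summer E-L 38 replicate 3 (5.44, adjusted p = 0.012) and VIT_212s0059g01870 in 7 of the 12 fits that left out 1 of its libraries, with an adjusted p of up to 0.0266 without CS summer E-L 38 replicate 1. For VIT_200s1203g00010 the CS libraries of E-L 38 were at 0, so the fitted size depends on the prior count and is no bound.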

How the results depend on the processing

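The 20 counts of called auxin genes and the 4 counts of differing stage changes were recomputed under each alternative. RLE size factors, the replicate block and, for the 20 counts it could give, the fit of 33 libraries left every count within 1.5 times its value. With the replicate block the count at E-L 38 of Riesling winter was 32, and 4 of 99 called changes of the named genes missed the limits: VIT_207s0104g01260, Riesling against CS at winter E-L 38 (-2.79, adjusted p = 0.0119), VIT_206s0061g01210, Riesling summer E-L 36 (0.99, adjusted p = 0.00355), VIT_218s0001g03540, Riesling winter E-L 38 (-1.13, adjusted p = 0.0166), and VIT_209s0002g00650, CS summer E-L 36 (-3.66, adjusted p = 0.0244). None of the 99 changed direction under any alternative. DESeq2 and RLE each lost 1, no filter 2, log2(FPKM + 0.1) 8, log2(FPKM + 1) 27 and the fit of the compared libraries alone 31. The fit of 33 libraries lost 4 of the 87 calls it could give, and the fits without 1 library lost 88 of 594. The log2(FPKM) scales moved the median of all genes by -0.18 to 0.18, against -0.04 to 0.05 in the counts reported.

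At E-L 36 of Riesling summer the count of 8 became 2 with log2(FPKM + 1), 4 with log2(FPKM + 0.1) and 0 in the fit of the compared libraries alone, and with the Riesling summer libraries labelled E-L 38 the count of 5 became 8 with DESeq2, 3 with log2(FPKM + 1) and 0 in that fit. The fit of the compared libraries alone also gave 11 in place of 18 at E-L 36 of Riesling winter, 5 in place of 14 for Riesling against CS at E-L 35 of summer, where log2(FPKM + 1) gave 9, and 3 in place of 11 for the Riesling seasons at E-L 35. For the Riesling seasons at E-L 36, log2(FPKM + 1) gave 3 in place of 6. Of the differing stage changes, the fit of the compared libraries alone gave 4 in place of 10 (summer, E-L 36), 3 in place of 7 (summer, E-L 38) and 1 in place of 2 (winter, E-L 36), as did no filter for the last, and DESeq2 and log2(FPKM + 1) each gave 17 in place of 11 (winter, E-L 38). The fit of the compared libraries alone rests on fewer samples by construction. The cause of the other shifts was not tested.

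Leaving out 1 library gave these ranges at E-L 36 and 38: 13 to 19 and 27 to 32 in Riesling winter, 3 to 10 and 2 to 8 in Riesling summer, 9 to 12 and 20 to 23 in CS winter, and 6 to 8 and 7 to 11 in CS summer. For Riesling against CS at E-L 35, 36 and 38 they were 14 to 16, 8 to 10 and 8 to 11 in winter and 9 to 17, 19 to 22 and 14 to 18 in summer. For winter against summer they were 7 to 11, 5 to 8 and 28 to 32 in Riesling and 6 to 7, 14 to 16 and 15 to 19 in CS. For the differing stage changes to E-L 36 and 38 they were 1 to 2 and 8 to 12 in winter and 6 to 10 and 2 to 7 in summer. Genes at a few counts per library, such as TAR3 or VIT_219s0014g04690, are limited by depth, and the counting error of single libraries is wide there.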
